A study of Homo sapiens with 12 samples.

Results

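UCHL1, SLC1A3, AGR2 and SYT13 are 4 genes whose RNA was lower when HKDC1 was put back into knockout cells of a human hepatoma line. They are 4 of the 57820 genes listed in each library and were picked by name because they fell in an earlier fit of rescue against knockout. Their rescue-against-knockout values are therefore given as a description, with no test. The libraries came from PLC/PRF/5, an epithelial hepatoma cell line. Control cells (genotype WT) had 4 libraries, HKDC1 knockout cells (KO) had 4, and knockout cells with HKDC1 put back (KO_RES, called rescue here) had 4. KO and rescue libraries came from 2 lines, each with 2 numbered libraries per state. KO 1_2 is line 1, number 2, and its rescue partner is KO_RES 1_2. The rescue cells carry the knockout as well, so 8 libraries came from edited cells. The labels do not say how the gene was edited, whether a line is 1 clone, how HKDC1 was put back, what the controls received, or whether libraries of a group were separate cultures. Each p-value therefore speaks only of the spread among these libraries, some or all of which may be technical.

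The 4 genes have different known roles. AGR2 is a protein of the endoplasmic reticulum, of the protein disulfide isomerase family, which catalyses disulfide bonding in secreted proteins and is known for its part in mucin production. SYT13 is an atypical synaptotagmin, a membrane protein of a family that regulates vesicle fusion. SLC1A3 carries glutamate and aspartate into cells with sodium and is best known from astrocytes. UCHL1 is a ubiquitin C-terminal hydrolase, abundant in neurons and neuroendocrine cells. HKDC1 is a relative of the hexokinases, which phosphorylate glucose.

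The sequences upstream of the genes are shown because the genes were lower together in the same libraries, so that a reader can see whether they look alike there. RefSeq gives an upstream window on GRCh38.p14 for 3 of the 4 genes (UCHL1, SLC1A3 and AGR2). Each run reads 5′ to 3′ on the gene's strand, toward the start site, and has CG pairs in capitals. The UCHL1 and SLC1A3 runs reach the start, and the AGR2 run stops at base 82 before it. The longest stretch outside annotated UTRs is shown. Where it was under 30 bases, the last 30 bases before the start are shown instead, whatever they overlap. The UCHL1 run is the last 30 bases before the start. Its window held no stretch longer than 30 bases outside annotated UTRs, so the run may overlap one. The full windows of UCHL1 and AGR2, used for base composition below, include annotated UTR bases. The UCHL1 run lies at chr4:41256898-41256927 on the plus strand, the SLC1A3 run at chr5:36596338-36596587 on the plus strand and the AGR2 run at chr7:16805081-16805249 on the minus strand.
UCHL1: ctttatagctgcagcctgggCGgctcCGct
SLC1A3: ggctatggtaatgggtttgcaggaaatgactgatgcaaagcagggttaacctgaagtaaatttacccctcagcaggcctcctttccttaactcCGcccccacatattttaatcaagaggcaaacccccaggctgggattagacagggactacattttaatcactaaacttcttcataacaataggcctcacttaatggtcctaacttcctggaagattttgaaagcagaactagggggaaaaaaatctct
AGR2: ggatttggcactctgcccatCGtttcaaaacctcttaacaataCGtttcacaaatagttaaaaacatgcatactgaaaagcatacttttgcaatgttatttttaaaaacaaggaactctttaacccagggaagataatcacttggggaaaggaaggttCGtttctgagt
The 3 windows do not look alike in base composition. Over the full 250 bases before the start, UCHL1 had 20 CG pairs and 64.4% GC, AGR2 had 3 CG pairs and 40.4% GC, and SLC1A3 had 1 CG pair and 43.2% GC. The medians over 35116 such windows were 11 CG pairs and 58% GC. SLC1A3 has 3 listed starts and the most upstream one was used, which is not a transcript start in GENCODE release 29, so its window may not be the one in use. A search of both strands for TATAAA found it in UCHL1 alone, on the minus strand from base 29 to base 24 before the start. TATAAA occurs in 10.7% of the windows. None of the 3 windows held ACGTG (a hypoxia response core, in 18.5% of windows), CACGTG (an E-box, which contains the former, 6.34%), CTTTGA (a TCF/LEF core, 11.2%), TNTTTAC (a FOXA motif, 9.58%) or CCAAT (32%). These letters are a description of the windows, and nothing follows from their absence about any factor.

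Library totals ranged from 36075411 to 71853616 counts. Levels are CPM on TMM-scaled library sizes, and 3 counts in a library, taken here as the detection floor, are 0.0407 to 0.0848 CPM. HKDC1 (ENSG00000156510.11, chromosome 10) was at 124 to 183 CPM in the controls, 146 to 153 CPM in the line 1 knockouts, 49.2 to 91.4 CPM in the line 2 knockouts and 508 to 1544 CPM in the rescues. HKDC1 RNA was thus above the control level in every rescue library, at 6.33 times the control mean, while the line 1 knockouts were within the range of the controls for this transcript. The genotype field of the labels contradicts 4 titles, those of KO_RES 1_1, KO_RES 2_1, KO 1_2 and KO 2_2. The titles were followed, and HKDC1 was higher in the titled rescue library of all 4 pairs. The controls stood apart from each other, with ALB, the albumin gene, at a mean of 865 CPM in controls 1 and 2 and 25.6 CPM in controls 3 and 4. Epithelial keratins KRT8 and KRT18 were at 1114 to 2400 CPM in every library and HNF4A, a hepatocyte factor, at 143 to 221 CPM. Of the 8 blood cell markers, 7 had means under 1 CPM (PTPRC, CD68 and HBB at most 0.110 CPM in any library), and LYZ, lysozyme, was at 266 to 922 CPM, and all 5 endothelial markers found had means under 1 CPM. In bulk RNA, fewer cells expressing a gene and less RNA per cell cannot be told apart.

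**Figure D1:**
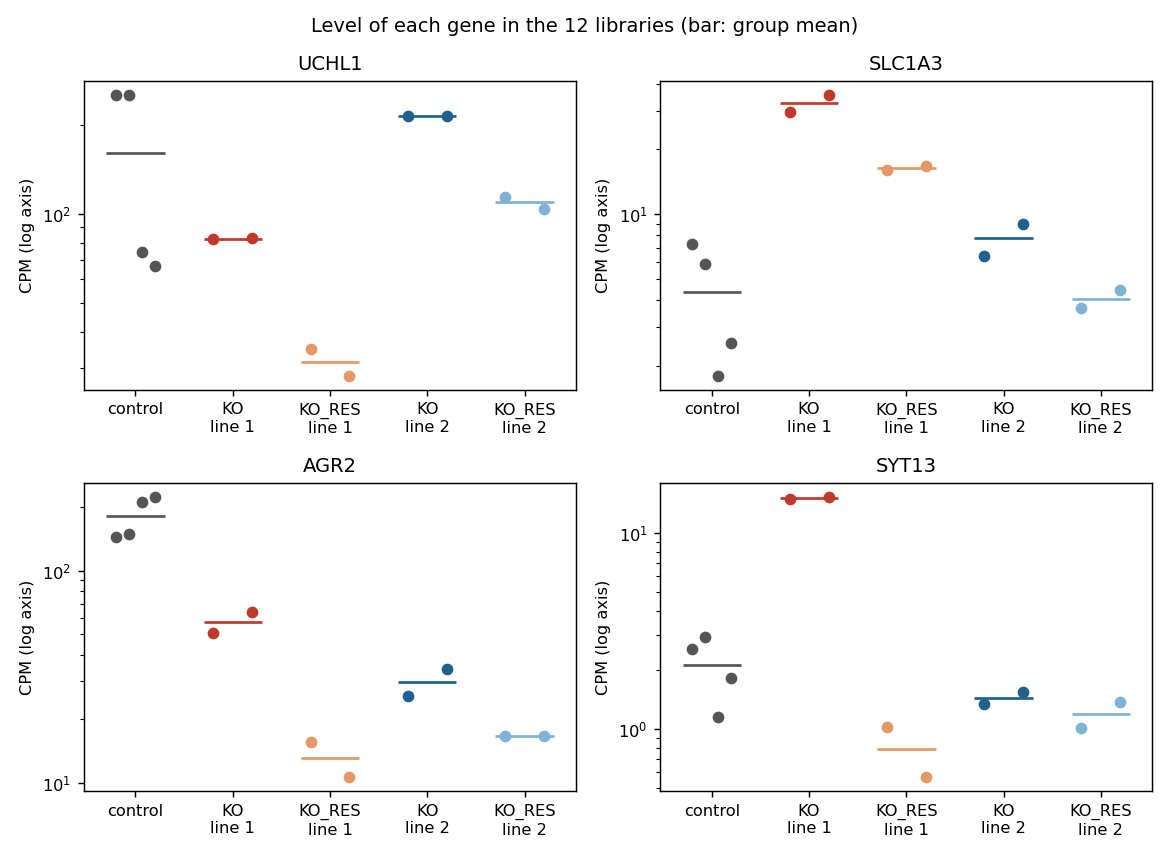
Level of UCHL1, SLC1A3, AGR2 and SYT13 in CPM (log axis) in each of the 12 libraries, with points for libraries and bars for group means. Each line's rescue libraries sit below its knockouts except for SYT13 in line 2, where they overlap, and the 4 controls of UCHL1 divide into 252 CPM and 66.5 to 74.1 CPM.

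AGR2, the disulfide isomerase relative, was the member with the clearest separation between states. AGR2 (ENSG00000106541.7, chromosome 7) read 145, 149, 211 and 223 CPM across the 4 controls in order. In the knockouts it was at 50.7 CPM (1_1), 64.1 CPM (1_2), 25.7 CPM (2_1) and 34.3 CPM (2_2). In the matching rescues it was at 15.5, 10.6, 16.6 and 16.5 CPM. Every edited library was below every control, and every rescue was below every knockout. The means were 182 ± 41.0 CPM in controls, 43.7 ± 17.1 in knockouts and 14.8 ± 2.85 in rescues (SD, n = 4 each). Rescue minus knockout was -35.1, -53.6, -9.09 and -17.8 CPM in pairs 1_1, 1_2, 2_1 and 2_2, or -1.71, -2.60, -0.63 and -1.05 as log2 ratios. Putting HKDC1 back therefore came with a level further from control, at 0.0812 times the control mean against 0.240 times in the knockouts. In order, the group means ran from control through KO line 1 (57.4 CPM), KO line 2 (29.97 CPM) and rescue line 2 (16.5 CPM) to rescue line 1 (13.0 CPM), and no neighbours in that order overlapped.

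SYT13, the synaptotagmin, was low throughout except in the line 1 knockouts. SYT13 (ENSG00000019505.3, chromosome 11) read 2.56, 2.94, 1.15 and 1.83 CPM across controls 1 to 4. The line 1 knockouts were at 14.9 and 15.3 CPM, and their rescues at 1.02 and 0.566 CPM, the latter 20 counts. The line 2 knockouts were at 1.34 and 1.55 CPM and their rescues at 1.01 and 1.36 CPM. Line 1 knockouts were thus above all other libraries, by 7.13 times against the control mean, and all other groups overlapped their neighbours in the order of levels. The means were 2.12 ± 0.792 CPM in controls, 8.27 ± 7.89 in knockouts and 0.990 ± 0.327 in rescues (SD, n = 4 each), and the spread of the knockouts is the gap between the lines. Rescue minus knockout was -13.9 and -14.7 CPM in line 1 and -0.330 and -0.183 CPM in line 2, in the order of the pair numbers. As log2 ratios these are -3.88 (95% counting interval -4.28 to -3.47), -4.76 (-5.40 to -4.11), -0.41 (-0.91 to 0.10) and -0.18 (-0.58 to 0.21). In line 2 the difference was within counting error in both pairs, so a fall of SYT13 there was not detectable at this depth. These intervals cover counting error only.

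SLC1A3, the glutamate and aspartate carrier, was lower in rescue by a similar ratio in both lines, from very different starting levels. SLC1A3 (ENSG00000079215.9, chromosome 5) read 7.30, 5.90, 1.80 and 2.55 CPM across controls 1 to 4. The line 1 knockouts had 29.7 and 35.6 CPM, and the line 2 knockouts had 6.42 and 9.06 CPM. The line 1 rescues had 16.0 and 16.8 CPM, and the line 2 rescues had 3.69 and 4.46 CPM. Every line 1 library was above every control, whereas line 2 libraries overlapped the controls. The means were 4.39 ± 2.64 CPM in controls, 20.2 ± 14.6 in knockouts and 10.2 ± 7.12 in rescues (SD, n = 4 each). Rescue minus knockout was -13.7, -18.8, -2.72 and -4.60 CPM in pairs 1_1, 1_2, 2_1 and 2_2, or -0.89, -1.08, -0.80 and -1.02 as log2 ratios. Group means ran from KO line 1 (32.6 CPM) through rescue line 1 (16.4 CPM), KO line 2 (7.74 CPM) and control to rescue line 2 (4.08 CPM), and the controls overlapped both line 2 groups.

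UCHL1, the ubiquitin hydrolase, was lower in rescue in both lines as well, but its control level is not a single level. UCHL1 (ENSG00000154277.8, chromosome 4) read 252 CPM in each of controls 1 and 2, against 74.1 and 66.5 CPM in the other pair of controls. Line 1 knockouts were at 82.0 and 82.6 CPM and their rescues at 34.8 and 28.4 CPM. Line 2 knockouts were at 215 and 214 CPM and their rescues at 114 and 104 CPM. Numbered libraries of a group lay close together, while controls differed among themselves by 3.59 times. Only the line 1 rescues were below every control. The means were 161 ± 105 CPM in controls, 148 ± 76.3 in knockouts and 70.4 ± 45.1 in rescues (SD, n = 4 each). Rescue minus knockout was -47.2, -54.2, -101 and -110 CPM in pairs 1_1, 1_2, 2_1 and 2_2, or -1.24, -1.54, -0.91 and -1.04 as log2 ratios. An antisense gene, UCHL1-AS1, overlaps the start of UCHL1, and the counts used here are stranded.

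**Figure D2:**
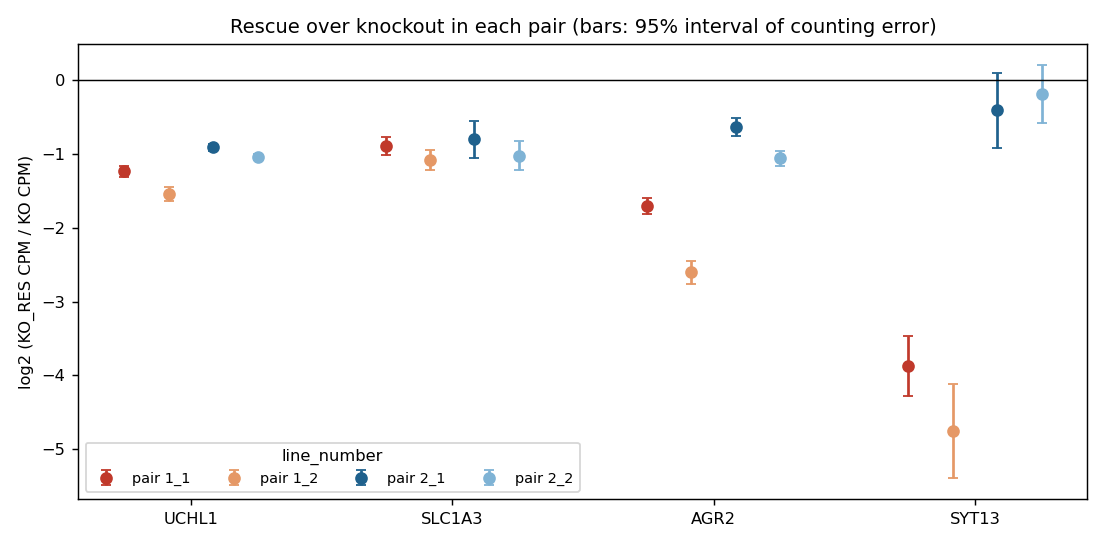
Log2 ratio of rescue over knockout CPM in each of the 4 pairs (named by line and number) for the 4 genes, with bars for the 95% interval of counting error. All 16 points lie below 0, and only the 2 line 2 pairs of SYT13 have intervals that cross it.

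All 4 genes were lower in rescue in 4 of 4 pairs, which was also so for 12.7% of the 20559 genes tested. AGR2 was the only one of the 4 whose rescue libraries were all below all knockouts, as 0.978% of tested genes were. In edgeR's quasi-likelihood fit over 5 groups, the fitted rescue-minus-knockout log2 fold changes were -1.50 ± 0.19 (SE) for AGR2, -2.26 ± 0.30 for SYT13, -0.96 ± 0.37 for SLC1A3 and -1.18 ± 0.41 for UCHL1. This fit called 2 genes at a Benjamini-Hochberg adjusted p under 0.05, or 0.00973% of those tested, and none of the 4. The 2 were HKDC1, higher, and CDH17, a cadherin, lower. With each knockout and its rescue treated as a pair (replicate block), 578 genes were called, 2.92% of 19766 tested, and all 4 genes were among them, and DESeq2 called 149 genes (0.725%), 2 of the 4 among them. Since the genes were picked on this contrast, nothing is read from these counts. When the 4 libraries with contradicting labels were left out, the log2 fold changes were -1.48 for AGR2, -3.05 for SYT13, -0.74 for SLC1A3 and -1.15 for UCHL1.

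Across the 12 libraries the 4 genes did not follow each other closely. On log2(CPM + 0.5), Pearson's r between 2 members ran from -0.36 (SLC1A3 with AGR2) to 0.61 (SLC1A3 with SYT13). With HKDC1 itself, r was -0.72 for UCHL1, -0.61 for AGR2, -0.42 for SYT13 and 0.13 for SLC1A3. The order depended on the measure. Spearman's rank correlation with HKDC1 was -0.44 for UCHL1, -0.54 for AGR2, -0.59 for SYT13 and -0.03 for SLC1A3. Between members it was 0.31 for SLC1A3 with SYT13 and 0.61 for AGR2 with SYT13. These values describe 12 libraries that share lines and groups and carry no p. SLC1A3 was thus lower in every pair without an inverse course to HKDC1 over the whole set.

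The edited cells as a whole against control is a comparison that the choice of genes did not use. Of the 4 genes, 2 passed the test in edgeR's quasi-likelihood fit, where 22.2% of all tested genes did. AGR2 fell by 2.88 on the log2 scale (SE 0.15, adjusted p = 1.28e-06) and was below all controls in 8 of 8 edited libraries, as 5.25% of tested genes were. SLC1A3 rose by 1.38 (SE 0.34, adjusted p = 0.0165), and its libraries overlapped the controls. UCHL1 stood at -0.87 on the log2 scale (SE 0.34, adjusted p = 0.0916) and SYT13 at 0.01 (SE 0.27, adjusted p = 0.983), and neither passed. The UCHL1 value depended on which controls were used. It was 0.33 without controls 1 and 2 (adjusted p = 0.0713) and -1.53 without controls 3 and 4 (adjusted p = 3.52e-06), so no direction against control can be given. The corresponding SLC1A3 values were 2.39 (adjusted p = 7.90e-05) and 0.77 (adjusted p = 0.00919), the same direction with either set of controls. SLC1A3 did not pass in a fit of 3 groups that ignored the lines (1.71, adjusted p = 0.112). For AGR2 the values were -3.13 and -2.59, and it passed with either set.

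The lines differed in 3 of the 4 genes, where 26.9% of tested genes differed. UCHL1 was higher in line 2 by 1.59 on the log2 scale (SE 0.41, edgeR adjusted p = 0.0158), and all 4 of its line 2 libraries were above all 4 line 1 libraries, as for 16% of tested genes. Leaving out KO 1_1, KO 1_2 or KO_RES 1_2 kept the difference at 1.58, 1.59 and 1.52 but moved its adjusted p to 0.0592, 0.0556 and 0.0640. SLC1A3 was lower in line 2 by 2.04 (log2 fold change -2.04, SE 0.38, adjusted p = 0.00300), again without overlap, as for 15.4% of tested genes. SYT13 differed by -1.41 between the lines (SE 0.30, adjusted p = 0.00595), which came from the knockouts, at 15.1 CPM in line 1 and 1.45 CPM in line 2, while the rescues were at 0.792 and 1.19 CPM. AGR2 stood at -0.30 (SE 0.18, adjusted p = 0.265), which did not pass. The line with more UCHL1 was thus the line with less SLC1A3 in both states.

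**Figure D3:**
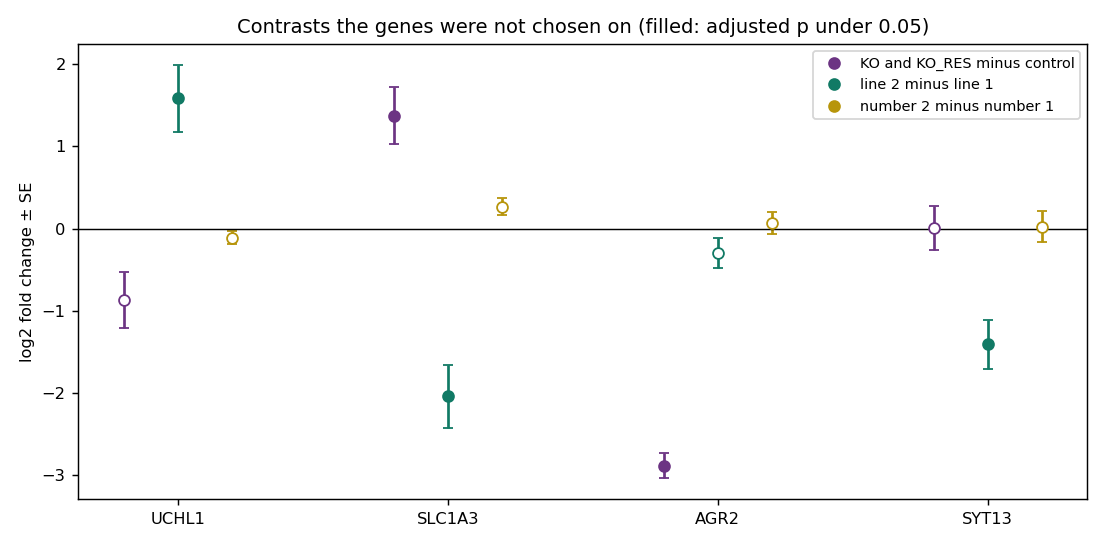
Log2 fold change ± SE of the 4 genes in 3 comparisons they were not chosen on, from edgeR fits, with filled points for an adjusted p under 0.05. AGR2 sits at -2.88 in edited cells against control, UCHL1 and SLC1A3 lie on opposite sides of 0 between the lines, and no gene is filled for number 2 against number 1.

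Whether the lower level on rescue differed between the lines was tested as an interaction, the line 2 difference minus the line 1 difference. It was 3.95 for SYT13 (SE 0.61, edgeR adjusted p = 0.270), 1.28 for AGR2 (SE 0.37), 0.41 for UCHL1 (SE 0.80) and 0.07 for SLC1A3 (SE 0.74), the last 3 at an adjusted p of 1.0. No gene was called in that fit (0% of 20559 tested, with 598 at an unadjusted p under 0.05). With the replicate block, 111 genes were called, 0.562% of those tested, and SYT13 was the 1 of the 4 that passed (3.94, adjusted p = 0.00345), as it did with DESeq2 (3.94, adjusted p = 4.50e-07), which called 33 genes (0.161%). The block gave 1.28 for AGR2 (adjusted p = 0.1002), 0.40 for UCHL1 (adjusted p = 0.388) and 0.06 for SLC1A3 (adjusted p = 0.931). The same rescue-minus-knockout differences entered this interaction and the pick of the 4 genes. Its p-values for the 4 genes are therefore a description and not separate support. The line 1 knockouts had the higher SYT13 level and their rescues had the higher HKDC1 level, at a mean of 1392 CPM against 565 CPM in line 2.

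The library number was compared because the genotype field divides the 8 edited libraries by number. None of the 4 genes passed in number 2 against number 1, where 20% of 19766 genes did. The edgeR log2 fold changes were -0.11 for UCHL1 (SE 0.08, adjusted p = 0.361), 0.27 for SLC1A3 (SE 0.10, adjusted p = 0.0807), 0.06 for AGR2 (SE 0.13, adjusted p = 0.769) and 0.02 for SYT13 (SE 0.19, adjusted p = 0.945).

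Relatives of each gene were counted next, without the 4 genes themselves, from 8 lists with 110 tested genes in all. In rescue against knockout none of the 110 was called by edgeR. Of the 110, 12 had an unadjusted p under 0.05, a larger share than the 1199 of all 20559 genes. The replicate block tested 109 of them and called 6 with a negative mean difference, where 2.02% of tested genes were called lower. In that fit 35 had an unadjusted p under 0.05, again a larger share than the 3384 of all 19766 genes. The lists were chosen with earlier results of these data known, so nothing is read from these shares. The 6 were CPE and DDC, enzymes of neuroendocrine cells, MUC13 and TFF1, a mucin and a mucosal peptide, RAB3B, a vesicle GTPase, and SLC1A4, a neutral amino acid carrier. DESeq2 called DDC, MUC13 and TFF1. These 6 are named because their count is small, after their values were seen. TFF1 fell by 2.59 on the log2 scale in the paired fit (SE 0.24, adjusted p = 0.00111), from 2.36 to 0.188 CPM in line 1 and from 1.73 to 0.565 CPM in line 2. DDC fell by 1.26 (SE 0.18, adjusted p = 0.00981) and MUC13 by 0.75 (SE 0.12, adjusted p = 0.0125). CPE had a paired log2 fold change of -0.69 (SE 0.08, adjusted p = 0.00372) that was not shared by the lines. It was at 10.1 CPM in knockouts and 3.27 CPM in rescues of line 1, but at 52.9 and 63.3 CPM in line 2, and its rescue-by-line difference passed in the paired fit (1.88, SE 0.16, adjusted p = 0.00321) and not in the 5-group fit (1.89, adjusted p = 0.688).

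Many, but not all, relatives of AGR2 fell in the edited cells. Of 15 tested members of the protein disulfide isomerase family, 10 fell, none rose and 5 did not pass against control (edgeR, median log2 fold change -0.62, against -0.02 over all genes), where 13.8% of tested genes fell. Among them PDIA4 was at 1114 ± 154 CPM in controls, 616 ± 184 in knockouts and 665 ± 196 in rescues, and ERP44 at 94.1 ± 17.2, 54.1 ± 5.84 and 55.0 ± 9.98 CPM (SD, n = 4 each). DNAJC10 fell by 0.73 and ERP29 by 0.76 on the log2 scale. The count was 10 without controls 1 and 2 and 9 without controls 3 and 4, where 10.3% and 15.5% of tested genes fell. None of the 15 was called between rescue and knockout by edgeR, DESeq2 or the paired fit, and 0, 0 and 1 had an unadjusted p under 0.05. AGR3, the closest relative of AGR2, was at or below 0.102 CPM in every library. Of 14 mucous secretory genes, 7 fell, none rose and 7 did not pass against control, with MUC13 lower by 1.35 (log2 fold change -1.35, adjusted p = 0.000172) and XBP1, a factor of secretory cells, by 0.71 (log2 fold change -0.71, adjusted p = 0.00270). The count was 5 without controls 1 and 2, while without controls 3 and 4 it was 4 with 1 gene higher. MUC13's fall was mainly that of line 1. It was at 386 CPM in controls, 83.4 and 39.1 CPM in knockout and rescue of line 1, and 458 and 348 CPM in those of line 2.

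SLC1A3's relatives did not share 1 direction. Of 5 tested SLC1 carriers, SLC1A4 rose by 0.97 against control (SE 0.17, adjusted p = 0.00283), and the glutamate carriers SLC1A1 and SLC1A2 fell by 2.71 (adjusted p = 0.00198) and 3.61 (adjusted p = 0.00412), the latter not called without controls 1 and 2. SLC1A1 was low throughout, at 1.15 CPM in controls, 0.0863 CPM in line 1 and 0.502 CPM in line 2. Its lowest value, 0.0196 CPM, was under the detection floor. SLC1A2 was at 8.03 CPM in controls, 0.816 CPM in knockouts and 0.576 CPM in rescues. SLC1A4 was at 51.6 CPM in controls, 119 CPM in knockouts and 86.2 CPM in rescues, which is the order of SLC1A3's own means. Of 19 genes of glutamate and aspartate metabolism, 6 rose and 2 fell, where 8.43% of tested genes rose. Without controls 1 and 2 the counts were 4 and 0, and without controls 3 and 4 they were 6 and 5. Between the lines 6 of the 19 were lower in line 2 and none higher, where 12.3% of tested genes were lower, with GOT1, a transaminase, at 240 CPM in line 1 and 141 CPM in line 2.

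UCHL1's and SYT13's relatives were counted in the same way. Of 10 ubiquitin hydrolase and ubiquitin genes, neither edgeR nor DESeq2 called any against control, with 2 at an unadjusted p under 0.05 in each. Without controls 3 and 4, edgeR called 1, UBB, lower, where 15.5% of tested genes fell. Between the lines UCHL5 (log2 fold change -0.43) and BAP1 (-0.44) were lower in line 2, the direction opposite to UCHL1, where 12.3% of tested genes were lower. Of 10 synaptotagmins 1, SYT8, fell against control, where 13.8% of tested genes fell. None was called between rescue and knockout by edgeR, DESeq2 or the paired fit, which tested 9 of them. At an unadjusted p under 0.05 there were 0, 0 and 6, where the paired fit had 3384 of all 19766 genes. Between the lines SYT14, SYT17 and SYT5 were higher in line 2 and SYT2 lower, 4 of 10 where 26.9% of tested genes differed. Of 25 vesicle fusion genes 4 fell against control, among them CPLX1 and CPLX2, the complexins, and 4 were lower in line 2, shares near the 13.8% and 12.3% of all tested genes. Without controls 1 and 2, 3 synaptotagmins rose and 1 fell, and without controls 3 and 4 the vesicle fusion genes that fell numbered 7 and those that rose 2. Of 12 neuroendocrine markers, 3 rose and 3 fell against control, and 6 were higher and 1 lower in line 2, where 14.6% of tested genes were higher. CPE, a prohormone-processing enzyme, was at 6.68 CPM in line 1 and 58.1 CPM in line 2, and CHGB, a granule protein, at 0.380 and 2.96 CPM.

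Some markers of other cell types moved with the line as well, and their part in the 4 genes' differences was not tested. Of 10 neuron and astrocyte markers, 4 were higher and 1 lower in line 2, where 26.9% of tested genes differed and 14.6% were higher, and the summed level was 217 to 662 CPM in controls, 255 to 384 in knockouts and 289 to 416 in rescues. That sum was mostly GJA1, MBP and SNAP25, while RBFOX3, NEFM, GFAP and S100B reached at most 0.489 CPM and were each at 0 in some libraries. MAP2, a neuronal cytoskeleton gene, was at 1.98 to 20.3 CPM, AQP4, an astrocyte water channel, at 0.768 to 4.83 CPM, and ALDH1L1 reached 1.01 CPM. MAP2's rescue-by-line difference, like that of SYT13, passed in the paired fit (2.20, SE 0.37, adjusted p = 0.0403) and not in the 5-group fit (2.26, adjusted p = 1.0). Of 7 fibroblast markers, 4 were higher in line 2, with a summed level of 7.10 to 12.1 CPM in controls, 6.71 to 13.4 in knockouts and 5.03 to 12.03 in rescues. Of 3 tested endothelial markers none was called between the lines by edgeR or DESeq2, with 1 at an unadjusted p under 0.05 in each. Of 10 hepatocyte markers, 3 differed between the lines, a share near that of all genes, among them APOB, the apolipoprotein B gene, at 18308 CPM in line 1 and 55.3 CPM in line 2. Against control 6 of the 10 fell, where 13.8% of tested genes fell. APOB was among the 6, but its control mean of 5905 CPM lay between those of the lines, so only line 2 was lower. Without controls 1 and 2, 5 fell, 1 rose and ALB was not called. Without controls 3 and 4, 6 fell and none rose.

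Some of these markers also moved in the contrast on which the 4 genes were picked, and their part in it was not tested. The 5-group fit called none of the 10 hepatocyte markers between rescue and knockout, with 1 at an unadjusted p under 0.05, and DESeq2 called AFP. The paired fit called 3, all higher in rescue, where 2.92% of tested genes were called. AFP, the fetal liver counterpart of albumin, was higher by 1.87 (SE 0.20, adjusted p = 0.00289), ALB by 0.71 (SE 0.10, adjusted p = 0.00799) and APOB by 0.75 (SE 0.09, adjusted p = 0.00503). AFP was at 7.71 CPM in knockouts and 52.8 CPM in rescues of line 1, and at 17.7 and 39.7 CPM in those of line 2. LYZ fell by 0.63 in the paired fit (SE 0.09, adjusted p = 0.0107), from 670 to 335 CPM in line 1 and from 382 to 319 CPM in line 2, and was not called in the 5-group fit (-0.63, adjusted p = 0.900). The paired results of AFP, ALB, APOB and LYZ, as of MAP2, fall outside the rule for named genes and were chosen after their values were seen.

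For each gene, the 5 named genes most alike in course were found by Pearson's r of log2(CPM + 0.5) over the 12 libraries, among 12281 candidates with a mean of at least 2 CPM. UCHL1's were MYO1A (r = 0.97), BEX1 (0.96), STXBP6 (0.96), NRG4 (0.95) and RIC3 (0.95). BEX1 was at 11.1 CPM in controls 1 and 2, 1.81 in controls 3 and 4, 1.74 and 0.275 in knockout and rescue of line 1, and 4.67 and 1.96 in those of line 2, which is UCHL1's order except that controls 3 and 4 came before KO line 1. AGR2's were CEMIP (0.97), NRP2 (0.97), LAMB3 (0.96), DNAJC15 (0.96) and ACSL5 (0.96). All 5 were lower in edited cells than in controls, as AGR2 was. They were picked for likeness to AGR2 over these same libraries, so that fall is not a separate result. CEMIP, a hyaluronan-binding protein, was at 25.1 and 77.7 CPM in those control sets, 7.75 and 1.60 CPM in knockout and rescue of line 1, and 5.69 and 2.76 CPM in line 2.

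SLC1A3's nearest were ATXN1-AS1 (0.96), RRAGD (0.96), THRB (0.95), ATG7 (0.95) and EAF1 (0.94), with smaller differences than SLC1A3. ATG7, an autophagy enzyme, was at 29.7 and 24.96 CPM in knockout and rescue of line 1 and at 16.97 and 15.8 CPM in line 2. SYT13's were ARF3 (0.92), BCL3 (0.88), TMUB2 (0.86), SPINT1 (0.85) and RND1 (0.85). SPINT1, a protease inhibitor, was at 6.34 CPM in the line 1 knockouts and 0.820 to 1.71 CPM in the other edited group means. ARF3 ranged only from 86.3 to 116 CPM over these means, so its likeness is in shape and not in size. The 12 libraries share lines and controls, and the likeness is a description.

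**Figure D4:**
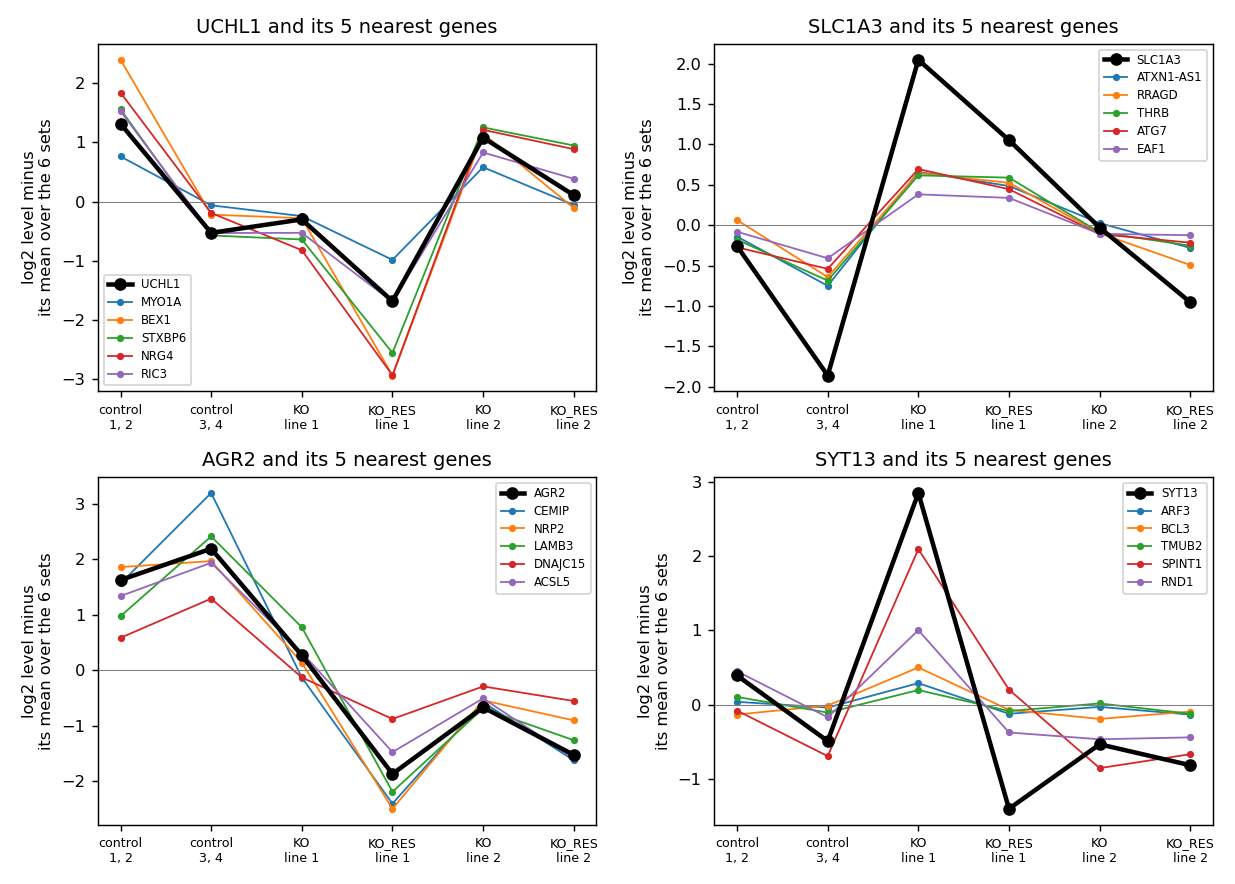
Log2 level of each of the 4 genes (black) and its 5 nearest genes (colours), each minus its own mean over 6 sets of libraries (controls 1 and 2, controls 3 and 4, and knockout and rescue of each line). AGR2's neighbours are lower in all edited sets than in controls, and SYT13 and SPINT1 peak in the line 1 knockouts.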

How the data were processed

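RNA of 12 libraries of PLC/PRF/5 cells was sequenced from a stranded mRNA kit, per the labels' protocols. The deposited files hold raw counts per gene, made with STAR 2.6.0b on GRCh37, per the submitters' processing notes. Other steps are not given in the sources used here. The stranded column was used, since its total was 19.8 to 21.1 times that of the opposite strand. The 4 unassigned lines (23.2% to 31.5% of their files' totals) were left out. Symbols came from a reference list that named 39538 of 57820 identifiers, and from GENCODE release 29 for others (40031 in all).

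Groups followed the titles. edgeR 4.0.16 in R 4.3.3 (TMM, filterByExpr, quasi-likelihood tests, Benjamini-Hochberg adjustment over all 20559 genes tested) fitted 5 groups, with a biological coefficient of variation of 25.8%. The line and number in the titles pair each knockout with a rescue. Same-numbered libraries deviated together (correlation 0.45 in line 1 and 0.63 in line 2 over 20559 genes), so a fit with the pair as replicate block is given where it changes a call. The script was tested on simulated counts. Alternatives tried were DESeq2 1.42.0, RLE scaling, keeping genes of low count, the unstranded column, fewer groups or libraries, and leaving out each library.

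The genes and lists were chosen with earlier results of these data known. Named genes were the 4 genes and HKDC1, up to 4 called genes per list with the smallest adjusted p in each comparison, and the 5 nearest genes to each of the 4. Sequences are from RefSeq (GRCh38.p14), so no gene coordinates of the count files are given.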

Additional observations from a re-analysis of the deposited data

How the results depend on the processing

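AGR2 and SYT13 against control, and AGR2, SLC1A3 and SYT13 between the lines, kept their side of the threshold in all alternatives run (SYT13 against control, never called, took either sign). The genes called in rescue against knockout (2) were 149 with DESeq2, 406 with no filter on low counts, 4 with unstranded counts, 32 with only knockout and rescue libraries, 578 with the replicate block, 0 with 3 groups, 0 with only libraries whose labels agree, and 2 to 4 when leaving out each library. The largest, 4, came without control 3. SLC1A3's fold change there (-0.96) was -0.74 with only libraries whose labels agree and -1.08 to -0.82 when leaving out each library. Genes called in edited against control (4567) were 1980 with 3 groups, where SLC1A3 (1.71) did not pass. UCHL1 against control passed with DESeq2 (-0.87), with no filter (-0.88), without controls 3 and 4 (-1.53), and without control 3 or 4 alone, and ranged from -1.14 to -0.58 when leaving out each library. UCHL1 between the lines ranged from 1.52 to 1.66. For the rescue by line, DESeq2 called 33 genes, no filter 192, the replicate block 111, and leaving out each library 0 to 1 (1 without KO_RES 1_1 or KO_RES 1_2). SYT13 passed there with DESeq2 (3.94), no filter (3.94) and the replicate block (3.94), and AGR2 with no filter (1.26). Genes called by number (3962) ranged from 1472 to 3871 when leaving out each library, and were lower by over 1.5 times without KO_RES 1_1 (1515), KO_RES 1_2 (1472), KO 2_1 (1547) or KO 2_2 (1699). The replicate block was used for rescue against knockout and rescue by line, and not against control or between the lines. The cause of these changes was not tested. SYT13 had 20 to 201 counts outside the line 1 knockouts, which limits what can be seen of it.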
